A study of Mus musculus with 20 samples.

Results

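The genes described here are 9 sialyltransferases, St3gal1, St3gal2, St3gal3, St3gal4, St3gal6, St6gal1, St8sia1, St8sia4 and St8sia6, out of 49671 genes counted in cultured mouse T cells. They were taken by name from a family chosen by the read counts of 2 of its genes, St8sia6 and St3gal2, which differed between groups of these libraries; between which groups is not stated. The values of those 2 genes are therefore a description with no test, and the other 7 members were tested. RNA came from 20 libraries in 4 groups of 5. Spleens and inguinal lymph nodes of mice gave CD8 or CD4 T cells, which were activated with 1 ng/mL human IL-2 on plates coated with antibodies to CD3 and CD28. Expansion followed in 50 ng/mL human IL-15 and 10 ng/mL human IL-7, cytokines that maintain memory T cells. Expansion lasted 4 days for the CD8 week 1 and CD4 week 1 groups, 18 days for CD4 week 3 and 25 days for CD8 week 4. Every group was sorted for the surface phenotype of central memory T cells, which includes CD44, to a purity above 97%, so no group holds naive, uncultured or unsorted cells. Polyclonal cells came from albino B6 mice and were activated for 72 h, while transgenic cells from the strains Marilyn-BLITC and MataHari-BLITC were activated for 24 h. Which library held which cells is not given, nor whether replicates differ in animal or culture. The p-values below thus measure no more than the spread among these samples, and that spread may be technical.

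Sialyltransferases are enzymes of the Golgi that move sialic acid from its activated donor, CMP-sialic acid, to the end of a growing glycan on a protein or lipid. The ST3Gal enzymes form an α2,3 bond to galactose, ST6Gal1 forms an α2,6 bond to galactose on N-glycans, and the ST8Sia enzymes add sialic acid to sialic acid through an α2,8 bond. On T cells, terminal sialic acid is known to bear on the binding of selectins, galectins and Siglecs and on the clearance of aged cells. The libraries measured messenger RNA, and neither enzyme activity nor glycans were measured.

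The libraries held 13.3 to 28.3 M counted reads, so that 3 counts over a group of 5, the floor used here for a gene without counts, equal 0.0263 to 0.0317 CPM (read counts scaled to library size). CD8 week 4 replicates 1 and 2 stood apart: on the first principal component (1000 genes of highest variance) they lay at -59.9 and -64.6, against -29.0 to -23.9 for the other CD8 week 4 libraries. Single libraries of the other groups stood apart too. CD8 week 1 replicate 3 lay at -33.7, against -62.4 to -52.9 for the rest of its group. CD4 week 1 replicate 2 lay at 18.7 (others 42.4 to 50.6) and CD4 week 3 replicate 2 at 24.5 (others 53.7 to 69.3). The numbers in the titles of the CD8 libraries fall in 2 number ranges, called A for replicates 1 to 3 and B for replicates 4 and 5, and CD4 titles form a range of their own. Number range and cell type therefore cannot be told apart between CD8 and CD4 cells, and values within each CD8 range are given beside the results. The sort fitted its markers: Cd8a reached at most 17.4 CPM in a CD4 library and at least 626 CPM in a CD8 library, Cd4 at most 0.585 CPM in a CD8 library, and Cd44 was at least 36.4 CPM in every library. Of the other cell types checked, the 7 myeloid markers together reached at most 1.55 CPM. The 4 NK cell markers summed to 3.03 to 49.7 CPM in CD8 and 0 to 1.02 CPM in CD4 libraries, and the 5 dendritic cell markers, mainly Itgax in CD8 cells, to 2.20 to 36.6 and 0 to 0.438 CPM. The 4 stroma markers, mainly Pecam1, summed to 60.9 to 107 CPM in CD8 and 105 to 253 CPM in CD4 libraries. The 5 erythroid and platelet markers summed to 0 to 0.301 CPM in CD8 libraries, 0.257 to 2.20 CPM in CD4 week 1 and 0.133 to 18.8 CPM in CD4 week 3, in CD4 cells mainly Hba-a1, which was at 0 in all CD8 libraries. These lists thus moved with cell type, and their part in the differences between CD8 and CD4 cells was not tested.

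All 9 members passed the filter on low counts, St8sia6 only through the CD4 groups. Levels of different genes were compared as CPM per kilobase of merged exon. On that scale St3gal4 led in CD8 cells, with 25.8 ± 2.18 at week 1 and 28.6 ± 2.51 at week 4 (SD, n = 5 each). St6gal1 led in CD4 cells, with 27.9 ± 9.48 at week 1 and 32.9 ± 7.65 at week 3. In CD8 week 4, St6gal1 stood at 3.19 ± 1.44, level with St8sia4 and below St3gal4, St3gal6, St3gal1, St3gal3 and St8sia1. St3gal2 had the lowest mean level of the detected members in 3 groups, from 0.351 ± 0.149 in CD4 week 3 to 1.47 ± 0.703 in CD8 week 1, and St8sia6 the lowest in CD4 week 1, at 1.77 ± 0.583. St8sia4 has 20091 bp of merged exon, by far the most of the 9, which lowers its level per kilobase.

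Summed by the bond that the enzymes form, the α2,3 members (St3gal1, St3gal2, St3gal3, St3gal4 and St3gal6) made up 70.6 ± 6.06% of the members' level per kilobase in CD8 week 1 and 84.1 ± 1.36% in CD8 week 4. In CD4 cells their share was 50.4 ± 4.24% at week 1 and 47.6 ± 6.67% at week 3 (SD, n = 5 each). The α2,6 member St6gal1 had shares of 18.6 ± 5.99%, 4.78 ± 1.92%, 31.1 ± 6.96% and 32.6 ± 5.21% in the order CD8 week 1, CD8 week 4, CD4 week 1 and CD4 week 3. For the α2,8 members (St8sia1, St8sia4 and St8sia6) the shares were 10.9 ± 1.69%, 11.1 ± 1.32%, 18.6 ± 3.74% and 19.7 ± 1.83% in that order. The sum of α2,3 members lay between 44.2 ± 6.97 in CD4 week 1 and 55.1 ± 2.65 CPM per kilobase in CD8 week 4. Every CD8 week 4 library (51.7 to 58.8) lay above every CD8 week 1 library (41.7 to 49.8) in that sum, and the CD4 groups overlapped. The α2,8 sums of the CD8 groups overlapped, at 7.18 ± 1.44 and 7.26 ± 0.717. These sums, shown in the bars by bond, are a description of the members with no test, and the α2,8 sum includes St8sia6. The St6galnac genes, which form α2,6 bonds to GalNAc, are not members and are left out of the sums and shares. Of these, St6galnac4 stood at 9.97, 9.53, 7.28 and 6.10 CPM per kilobase in the same order of groups. In CD8 week 4 St6gal1 stood at 3.19, so its share there is not that of all α2,6 enzymes.

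**Figure D1:**
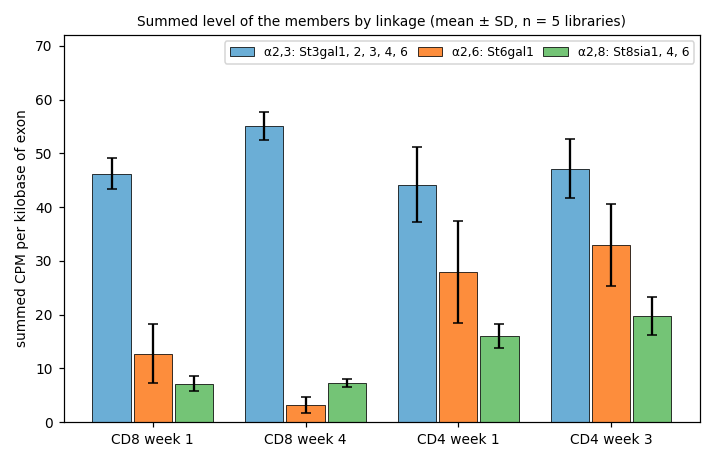
Summed level of the sialyltransferase members in CPM per kilobase of exon (vertical axis, linear from 0) in each group, by the bond formed; bars are means and whiskers ± 1 SD over 5 libraries. The α2,3 sums lie between 44.2 and 55.1, while the α2,6 bar, which holds St6gal1 alone, is 3.19 in CD8 week 4 and 32.9 in CD4 week 3. Genes that are not members, among them the St6galnac genes, are not in the bars.

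Between week 1 and week 4 in CD8 cells, St6gal1 fell, St3gal6 and St3gal3 rose, and the other 4 tested members did not pass the test (the quasi-likelihood test of edgeR, with p adjusted by Benjamini-Hochberg and called under 0.05). These 3 called members of 7 stand beside 33.5% of all 13290 genes called in that comparison (17.1% higher, 16.4% lower). St6gal1 and St3gal3 had week 1 and week 4 libraries that did not overlap, against 20.8% of all genes. In CD4 cells between week 1 and week 3, St3gal4 fell and the other 6 did not pass, beside 16.5% of genes called (7.67% higher, 8.80% lower). None of the 7 was free of overlap there, against 8.15% of genes. The median log2 fold change of the 7 was 0.17 in CD8 and 0.21 in CD4 cells, and that of all genes 0.03 and 0.01.

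Between the cell types, at week 1, 5 of the 7 differed (2 higher in CD8, 3 higher in CD4 cells), beside 38.1% of genes called (19.1% higher and 19% lower in CD8), and 2 had no overlap, against 23.7% of genes. In the long-term groups all 7 differed, beside 32.7% of genes called (17.7% higher and 15% lower in CD8): St3gal3, St3gal4 and St3gal6 were higher in CD8 week 4, and St3gal1, St6gal1, St8sia1 and St8sia4 were higher in CD4 week 3. Each of these 7 had no overlap between the 2 groups, against 20.6% of genes. These cells had been expanded for 25 and 18 days, so that cell type and time cannot be told apart in this comparison. Within number range B, and without CD8 week 4 replicates 1 and 2, 5 of the 7 remained past the threshold. The medians of the 7 were -0.63 at week 1 and -0.82 in long-term culture, against -0.01 and 0.01 for all genes. With St3gal2 added, which was not tested, the medians were -0.53 and -0.004. Members lay on both sides of 0 at each stage, so these medians describe no common shift of the family. The comparisons share libraries, so these counts are not independent of each other.

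**Figure D2:**
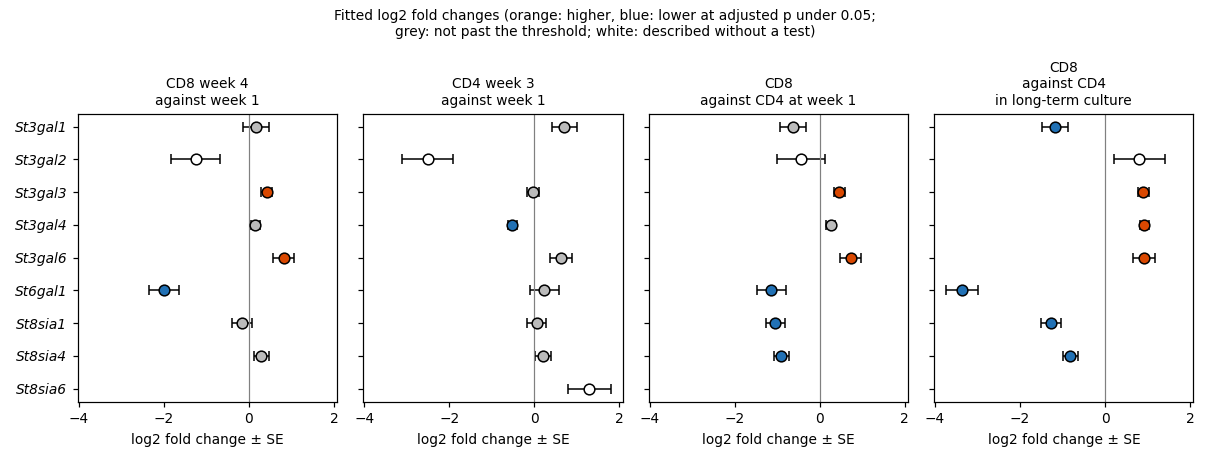
Fitted log2 fold change ± SE (horizontal axis) of each member in 4 comparisons; orange is higher and blue lower at an adjusted p under 0.05, grey did not pass, and white was described without a test. St6gal1 stands farthest to the left in both comparisons that hold CD8 week 4, at -1.995 and -3.37, and St8sia6 appears only in CD4 cells because it had no count in CD8 libraries.

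St8sia6 (ENSMUSG00000003418, GRCm38 chr2:13651021-13794064, minus strand, protein coding) encodes an enzyme that forms short α2,8 chains, mainly on O-glycans, and its products are known ligands of inhibitory Siglecs. It had 0 counts in all 10 CD8 libraries. The CD4 week 1 libraries held 10.9, 14.5, 7.30, 17.9 and 17.2 CPM (replicates 1 to 5; mean 13.6 ± 4.46, SD, n = 5), from 1576 counts in all. In CD4 week 3 the values were 30.2, 4.97, 25.5, 58.5 and 47.5 CPM (33.3 ± 20.7, n = 5), from 3793 counts. Every CD4 library was thus above every CD8 library. Replicate 2 of CD4 week 3 lay below all week 1 libraries, while the other 4 week 3 libraries lay above them. Set against the floor of 3 counts over a group, St8sia6 was at least 429-fold higher in CD4 week 1 than in CD8 week 1 and at least 1255-fold higher in CD4 week 3 than in CD8 week 4. The fitted change in CD4 cells was 1.29 ± 0.509 (log2, SE; 2.45-fold), 0.99 to 1.57 with each library left out in turn. In bulk RNA, fewer cells that express a gene and less RNA per cell cannot be told apart. An annotated antisense gene at the locus, Gm37126, had no count in any library.

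The promoter window of St8sia6 is shown because the gene had no count in one cell type and was counted in every library of the other. RefSeq windows of 250 bases before to 50 bases after a start site (GRCm38.p6) matched 7 of the 9 members. St8sia6 lies in a window with 39 CpG dinucleotides, more than in 95.6% of the 32851 windows of all genes, whose median is 7. Both strands were searched for GGGCGG (the GC box, in 35.7% of all windows), TTCNNNGAA (the STAT motif, 8.30%), TATAAA (13.6%), CCGGAA (ETS, 14.9%) and TGTGGT (RUNX, 16.8%). The window holds 1 GC box on the opposite strand, in capitals below, and none of the other letters. A match is a description and shows no binding.
St8sia6 chr2:13793471-13793770 minus strand: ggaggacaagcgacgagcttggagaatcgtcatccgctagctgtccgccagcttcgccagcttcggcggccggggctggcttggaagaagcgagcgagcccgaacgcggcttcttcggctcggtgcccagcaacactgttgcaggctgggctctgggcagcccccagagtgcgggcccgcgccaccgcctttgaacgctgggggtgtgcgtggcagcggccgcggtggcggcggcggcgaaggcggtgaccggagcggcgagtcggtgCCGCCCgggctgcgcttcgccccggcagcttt

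By the root mean square difference of centred log2 CPM over the 20 libraries, the 3 genes closest to St8sia6 among 9335 searched were Cd40lg (0.85), Ly6c1 (1.13) and Stc1 (1.19). St8sia6 itself had a root mean square of 3.89 around its own mean. Cd40lg, which encodes the CD40 ligand of helper T cells, stood at 0.0451 and 0.00714 CPM in CD8 week 1 and week 4 and at 38.8 and 52.5 CPM in CD4 week 1 and week 3. Ly6c1, a surface antigen of lymphocytes, stood at 0.325, 0.434, 35.5 and 69.0 CPM in that order. For Stc1, which encodes the secreted protein stanniocalcin, the means were 0.215, 0.0255, 7.86 and 31.3 CPM. In each of the 3, as in St8sia6, the CD4 week 3 mean was the highest. The 3 genes were picked for nearness to St8sia6 over these same libraries, so this likeness is a description and no separate result.

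St3gal2 (ENSMUSG00000031749, GRCm38 chr8:110919922-110972480, plus strand, protein coding) adds α2,3 sialic acid to O-glycans and to gangliosides. Its libraries held 9.02, 11.5, 1.99, 8.10 and 6.40 CPM in CD8 week 1 and 5.18, 7.32, 0.466, 1.17 and 1.44 CPM in CD8 week 4. The CD4 week 1 libraries held 12.5, 14.96, 4.95, 6.21 and 11.7 CPM, and the CD4 week 3 libraries 1.21, 2.42, 0.814, 1.87 and 2.54 CPM. Each CD4 week 3 library lay below each CD4 week 1 library, whereas the CD8 groups overlapped. In CD8 cells the overlap came from week 1 replicate 3, at 1.99 CPM, and from week 4 replicates 1 and 2. These are the CD8 libraries that stood apart on the first component. The fitted log2 changes, given without a test, were -2.50 ± 0.601 in CD4 cells (SE; 5.67-fold lower) and -1.25 ± 0.577 in CD8 cells (2.39-fold lower). For CD8 cells the value was -2.83 without week 4 replicates 1 and 2, -0.80 within number range A and -2.48 within number range B. Between CD8 and CD4 cells the fitted differences were -0.44 ± 0.560 at week 1 and 0.81 ± 0.592 in long-term culture, and the latter turned to -0.77 without CD8 week 4 replicates 1 and 2. The nearest patterns over 20 libraries were those of Ptms (0.66), Phactr2 (0.67) and Raph1 (0.79), against 1.38 for St3gal2 around its own mean. Raph1, which encodes lamellipodin, stood at 22.6 and 13.3 CPM in CD8 and at 15.1 and 9.33 CPM in CD4 cells, earlier time first. Ptms, which encodes parathymosin, went from 148 to 33.7 CPM in CD8 and from 78.2 to 23.9 CPM in CD4 cells.

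St6gal1 (ENSMUSG00000022885, GRCm38 chr16:23224740-23360350, plus strand, protein coding) makes the α2,6 sialic acid of N-glycans, a ligand of CD22 and a cap known to hinder galectin binding. CD8 week 1 libraries held 28.0, 44.5, 87.8, 89.7 and 62.0 CPM, and CD8 week 4 libraries 10.9, 17.7, 24.5, 18.9 and 6.49 CPM. The highest week 4 library lay below the lowest at week 1. St6gal1 fell 3.99-fold in CD8 cells (log2 fold change -1.995, SE 0.356, adjusted p 0.000651), with -1.597 within number range A and -2.58 within number range B on the log2 scale. The call held in all 22 alternatives tried (adjusted p 1.84e-07 to 0.0345). CD8 week 4 replicates 1 and 2 were within the range of the other week 4 libraries for this gene.

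In CD4 cells St6gal1 stood at 197, 79.0, 127, 169 and 113 CPM at week 1 and at 163, 97.1, 177, 193 and 178 CPM at week 3, overlapping groups that did not pass the test (0.24, SE 0.338, adjusted p 0.658). CD8 cells were lower than CD4 cells by 2.20-fold at week 1 (-1.13, SE 0.343, adjusted p 0.0140) and by 10.3-fold in long-term culture (-3.37, SE 0.373, adjusted p 2.08e-06). At week 1 the difference was -1.36 within number range A and -0.85 within number range B, where it lost the threshold (adjusted p 0.137). In the long-term groups it was -3.19 and -3.67, past the threshold in both. The change in CD8 minus that in CD4 cells was -2.23 (SE 0.488, adjusted p 0.0403), 1 of 2 tested members called in that comparison, St6gal1 lower and St3gal4 higher, beside 0.655% of all genes (0.248% higher, 0.406% lower). This call was lost in 18 of 31 alternatives, among them 15 of the 20 that left out 1 library, with values of -2.45 to -2.03 over those 20. It was kept with any 1 of these left out: CD8 week 1 replicates 1 and 3, CD8 week 4 replicate 3, CD4 week 1 replicate 1 and CD4 week 3 replicate 2. The level per kilobase of St6gal1 was also divided by that of St3gal4, the leading α2,3 gene by mean in every group except CD4 week 3. In CD4 week 3 the mean of St3gal1 was higher, and St3gal4 itself was lower than at week 1. The ratio to St3gal4 was 0.225 to 0.8003 in CD8 week 1 and 0.0520 to 0.171 in CD8 week 4 libraries. It was 0.776 to 2.16 in CD4 week 1 and 0.990 to 2.93 in CD4 week 3 libraries.

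B cells are known for strong St6gal1 expression. Among the B cell markers described here, Ighm stood at 155 to 469 CPM of the library total in CD8 week 1, 72.7 to 214 in CD8 week 4, 301 to 650.2 in CD4 week 1 and 297 to 467 in CD4 week 3 (means 271, 157, 414 and 387 CPM). Ighm thus followed the order of the St6gal1 means except between the CD4 groups. Cd79a, Ms4a1 and Pax5, defining markers of B cells, reached at most 0.532 CPM in any library. Ms4a1 and Pax5 were at 0 in CD8 week 4, and Ms4a1 in CD4 week 3. Cd79b had means of 10.1, 4.83, 0.739 and 0.590 CPM. Between the CD8 groups its mean fell, as that of St6gal1 did, without passing the test (-1.03, adjusted p 0.0985). Its CD4 means were below its CD8 means, against the order of St6gal1. A part of B cells in the St6gal1 values was not tested.

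RefSeq gives 3 start windows for St6gal1, shown because a gene on the opposite strand overlaps the first of its starts. That gene, BC106179 (GRCm38 chr16:23220656-23225368, minus strand, processed transcript), was chosen after its values were seen. It stood at 0.162 ± 0.154 and 0.153 ± 0.125 CPM in CD8 week 1 and week 4, and at 3.01 ± 1.76 and 6.72 ± 3.50 CPM in CD4 week 1 and week 3 (SD, n = 5 each). It was lower in CD8 cells at week 1 (log2 fold change -4.13, SE 0.652, adjusted p 9.71e-05) and in long-term culture (-5.36, SE 0.649, adjusted p 5.73e-06), but did not pass between times in CD8 cells (-0.08, adjusted p 0.953). The reads were counted by strand, and a share of misassigned reads was not tested. The first window holds 7 CpG and 1 GC box on the opposite strand, in capitals; the second holds 10 and the third 6 CpG, and neither holds any of the 5 motifs. The counts per gene do not show which start was used.
St6gal1 window 1 chr16:23224490-23224789 plus strand: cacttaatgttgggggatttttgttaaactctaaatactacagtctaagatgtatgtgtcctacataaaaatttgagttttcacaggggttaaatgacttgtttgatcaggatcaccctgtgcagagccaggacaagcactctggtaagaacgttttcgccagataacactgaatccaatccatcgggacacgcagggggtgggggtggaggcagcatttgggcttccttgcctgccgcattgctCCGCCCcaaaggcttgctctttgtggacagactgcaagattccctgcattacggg
St6gal1 window 2 chr16:23225771-23226070 plus strand: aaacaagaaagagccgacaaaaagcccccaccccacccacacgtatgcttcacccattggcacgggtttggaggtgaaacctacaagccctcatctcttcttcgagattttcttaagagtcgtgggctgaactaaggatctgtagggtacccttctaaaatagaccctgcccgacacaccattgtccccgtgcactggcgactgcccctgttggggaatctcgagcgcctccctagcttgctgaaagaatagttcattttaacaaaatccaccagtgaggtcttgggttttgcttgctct
St6gal1 window 3 chr16:23290220-23290519 plus strand: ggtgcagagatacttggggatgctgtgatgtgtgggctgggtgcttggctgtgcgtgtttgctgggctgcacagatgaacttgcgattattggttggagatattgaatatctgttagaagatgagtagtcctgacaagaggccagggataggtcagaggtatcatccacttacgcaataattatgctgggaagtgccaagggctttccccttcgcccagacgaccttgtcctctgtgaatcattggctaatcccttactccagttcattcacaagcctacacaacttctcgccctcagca

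**Figure D3:**
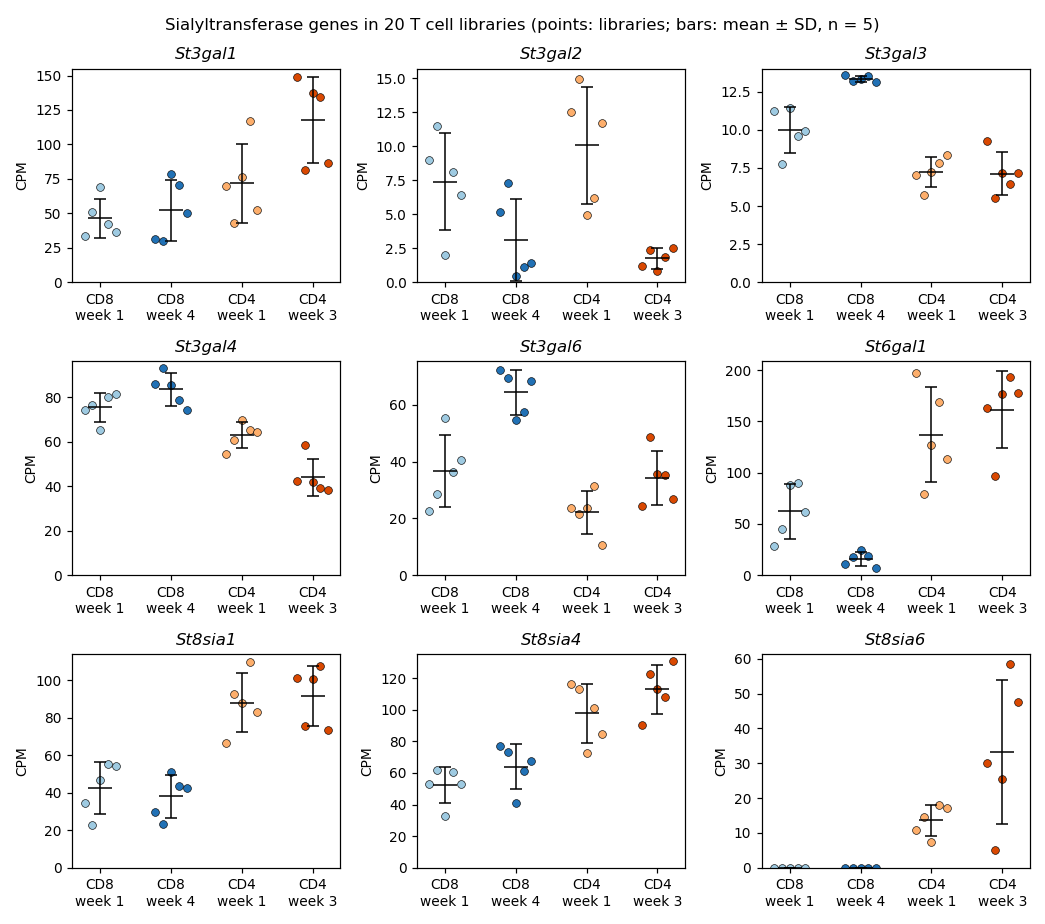
Level of each member in CPM (vertical axis, linear from 0, scaled per gene) in the 4 groups; points are libraries in replicate order, and bars are means ± SD (n = 5). St6gal1 is lowest in CD8 week 4 (6.49 to 24.5 CPM), and St8sia6 lies at 0 in all CD8 libraries.

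Among the α2,3 enzymes, St3gal4 (ENSMUSG00000032038, GRCm38 chr9:35046576-35119268, minus strand), acts in the synthesis of selectin ligands. Its CD8 libraries held 74.05, 76.4, 65.2, 80.0 and 81.4 CPM at week 1 and 86.0, 93.3, 85.3, 78.7 and 74.2 CPM at week 4, and did not pass the test between times (0.15, SE 0.106, adjusted p 0.301). CD4 libraries held 54.3, 60.5, 69.9, 65.4 and 64.1 CPM at week 1 and 42.4, 58.3, 41.6, 39.2 and 38.0 CPM at week 3. Replicate 2 of CD4 week 3 was the one that overlapped week 1. St3gal4 fell 1.43-fold in CD4 cells (-0.52, SE 0.106, adjusted p 0.00480). In the long-term groups it was 1.90-fold higher in CD8 cells (0.93, SE 0.107, adjusted p 3.32e-06; 1.01 and 0.80 within number ranges A and B, past the threshold in both). At week 1 the difference of 0.26 missed the threshold (adjusted p 0.0570). Leaving out CD8 week 1 replicate 3 (0.31, adjusted p 0.0265) or CD4 week 1 replicate 3 (0.30, 0.0443) brought it past, and it passed in 7 of the 21 alternatives, over which the difference ran from 0.19 to 0.36. The change in CD8 minus that in CD4 cells was 0.66 (SE 0.150, adjusted p 0.0470). This call was lost in 25 of 31 alternatives. When 1 library was left out, it was kept only without CD8 week 1 replicate 3 or CD4 week 3 replicate 2 (0.62 to 0.77 over the 20 libraries, adjusted p 0.00402 to 0.0960). 4930581F22Rik, a transcript on the opposite strand that overlaps the start of the St3gal4 gene, stood at 24.9, 36.1, 25.4 and 36.5 CPM in CD8 week 1, CD8 week 4, CD4 week 1 and CD4 week 3. It rose in both cell types (0.53 and 0.52, adjusted p 0.0126 and 0.0272), and both genes were counted by strand.

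St3gal6 (ENSMUSG00000022747, GRCm38 chr16:58468125-58524243, minus strand), another enzyme of selectin ligand synthesis, held 22.6, 28.4, 55.4, 36.2 and 40.5 CPM in CD8 week 1 and 72.3, 69.6, 54.7, 57.3 and 68.3 CPM in CD8 week 4. Only week 1 replicate 3, at 55.4 CPM, reached into the week 4 range. St3gal6 rose 1.76-fold in CD8 cells (0.82, SE 0.254, adjusted p 0.0197), by 0.89 and 0.71 within number ranges A and B, where the call was lost (adjusted p 0.140 and 0.208). Leaving out CD8 week 1 replicate 1 (0.68, adjusted p 0.0549) or 2 (0.74, 0.0513) ended the call too, as did leaving out both of CD8 week 4 replicates 1 and 2 (0.72, 0.0786). CD4 libraries held 23.6, 21.4, 23.6, 31.3 and 10.5 CPM at week 1 and 24.3, 48.7, 35.5, 35.2 and 26.8 CPM at week 3, an overlap that did not pass (0.63, SE 0.255, adjusted p 0.0957) except without CD4 week 1 replicate 4 (0.78, 0.0496). CD8 cells were 1.66-fold higher than CD4 cells at week 1 (0.73, SE 0.255, adjusted p 0.0305) and 1.89-fold higher in long-term culture (0.92, SE 0.254, adjusted p 0.00951). The week 1 call ended on leaving out CD8 week 1 replicate 3 (0.53, adjusted p 0.0908), CD8 week 1 replicate 5 (0.69, 0.0616) or CD4 week 1 replicate 5 (0.55, 0.0671). It was lost within both number ranges too (0.68 and 0.80, adjusted p 0.136 and 0.0763), and in 7 of 21 alternatives in all. The long-term difference of St3gal6 was 0.94 within number range A and 0.88 within number range B, where it lost the threshold (0.0869), as it did without CD8 week 4 replicates 1 and 2 (0.82, 0.0651).

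St3gal3 (ENSMUSG00000028538, GRCm38 chr4:117932154-118134914, minus strand), which sialylates N-glycans, had low and narrow levels. In CD8 week 1 it stood at 11.3, 7.75, 11.4, 9.62 and 9.94 CPM, and in CD8 week 4 at 13.6, 13.2, 13.3, 13.5 and 13.1 CPM, with every later library above every earlier one. It rose 1.34-fold (0.42, SE 0.136, adjusted p 0.0245). Leaving out CD8 week 1 replicate 2 (0.34, adjusted p 0.0695) or 4 (0.40, 0.0523) ended the call, as did leaving out both of CD8 week 4 replicates 1 and 2 (0.41, 0.0629) and testing within number ranges A and B (0.40 and 0.44, 0.212 and 0.164). CD4 libraries held 5.74 to 8.33 CPM at week 1 and 5.54 to 9.29 CPM at week 3 and did not pass (-0.02, SE 0.137, adjusted p 0.927). CD8 cells were 1.38-fold higher than CD4 cells at week 1 (0.46, SE 0.137, adjusted p 0.0120) and 1.87-fold higher in long-term culture (0.91, SE 0.137, adjusted p 6.25e-05). At week 1 the values within number ranges A and B were 0.49 and 0.44 (adjusted p 0.0556 and 0.0896), and in long-term culture 0.91 in both, past the threshold.

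St3gal1 (ENSMUSG00000013846, GRCm38 chr15:67102875-67113992, minus strand) caps core 1 O-glycans of proteins such as CD43, a step known to shape CD8 T cell survival. CD8 libraries held 34.0, 50.8, 68.9, 42.3 and 36.4 CPM at week 1 and 31.8, 30.3, 78.5, 71.0 and 50.3 CPM at week 4, where replicates 1 and 2 were the lowest. CD4 libraries held 69.6, 43.1, 76.7, 117 and 52.6 CPM at week 1 and 149, 81.2, 137, 134 and 86.5 CPM at week 3. St3gal1 did not pass between times in CD8 (0.17, SE 0.301, adjusted p 0.691) or CD4 cells (0.71, SE 0.300, adjusted p 0.108), although in CD4 cells it passed without week 1 replicate 4 (0.96, adjusted p 0.0375). CD4 week 3 was 2.25-fold above CD8 week 4 with no overlap (CD8 minus CD4 -1.17, SE 0.303, adjusted p 0.00630). That difference was -1.33 within number range A and -0.95 within number range B, where the call was lost (adjusted p 0.102), as it was without CD8 week 4 replicates 1 and 2 (-0.82, 0.0743). The week 1 difference was -0.63 (adjusted p 0.106), past the threshold when CD8 week 1 replicate 3 was left out (-0.81, 0.0426). The deposited gene model of St3gal1 ends at 67113992, while a later GENCODE model (M21) runs on to 67176830, so reads over its upstream exons may not have been counted.

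Of the α2,8 enzymes, St8sia1 (ENSMUSG00000030283, GRCm38 chr6:142821545-142964452, minus strand) makes the ganglioside GD3. CD8 libraries held 34.4, 22.8, 46.8, 55.2 and 54.1 CPM at week 1 and 29.6, 23.2, 50.9, 43.8 and 42.4 CPM at week 4. CD4 libraries held 66.2, 92.6, 87.7, 110 and 83.0 CPM at week 1 and 101, 75.3, 101, 108 and 73.2 CPM at week 3. Every CD4 library lay above every CD8 library, while the times overlapped within each cell type. CD8 cells were lower 2.06-fold at week 1 (-1.04, SE 0.231, adjusted p 0.00177) and 2.41-fold in long-term culture (-1.27, SE 0.232, adjusted p 0.000395). Within number ranges A and B the week 1 differences were -1.34 and -0.68 and the long-term differences -1.40 and -1.09, each past the threshold. St8sia1 did not pass between times in CD8 (-0.17, SE 0.230, adjusted p 0.605) or CD4 cells (0.06, SE 0.227, adjusted p 0.879).

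St8sia4 (ENSMUSG00000040710, GRCm38 chr1:95587682-95667571, minus strand) builds polysialic acid, known on the chemokine receptor CCR7 and on neuropilin 2. CD8 libraries held 53.2, 62.1, 33.0, 60.8 and 53.0 CPM at week 1 and 77.3, 73.1, 41.1, 61.2 and 67.7 CPM at week 4. CD4 libraries held 117, 113, 72.3, 101 and 85.0 CPM at week 1 and 90.4, 123, 113, 108 and 131 CPM at week 3. At each stage every CD4 library was above every CD8 library. CD8 cells were lower 1.86-fold at week 1 (-0.90, SE 0.182, adjusted p 0.000862) and 1.76-fold in long-term culture (-0.82, SE 0.181, adjusted p 0.00204). Within number ranges A and B these differences were -0.98 and -0.78, and -0.82 and -0.81, each past the threshold. The times did not pass in CD8 (0.29, SE 0.181, adjusted p 0.227) or CD4 cells (0.21, SE 0.180, adjusted p 0.441). Both α2,8 genes with counts in every library thus kept 1 direction between cell types and passed no test between times.

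CD8 week 4 replicates 1 and 2 were also set beside the rest of their group in each member. Both lay above the other 3 week 4 libraries in 4 members (St3gal2, St3gal4, St3gal6 and St8sia4), below them in 2 (St3gal1 and St8sia1), and within or on both sides of them in St3gal3, St6gal1 and St8sia6. In St3gal2 they held 5.18 and 7.32 CPM against 0.466 to 1.44 CPM. No share over all genes was taken for this comparison, so the counts do not set the members apart from other genes.

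Of 11 other sialyltransferases, 6 passed the filter on low counts, and St6gal2, St6galnac1, St8sia2, St8sia3 and St8sia5 had no count in any library. In CD8 cells 2 of the 6 fell and none rose, beside 33.5% of all genes called; in CD4 cells 1 rose and 1 fell, beside 16.5%. St6galnac6, which adds α2,6 sialic acid to GalNAc of gangliosides, fell in both cell types. Its CD8 libraries held 14.2, 15.3, 6.86, 10.0 and 10.2 CPM at week 1 and 3.11, 3.44, 2.07, 2.73 and 3.00 CPM at week 4 (-1.98, SE 0.237, adjusted p 2.50e-05; -2.07 and -1.82 within the number ranges). In CD4 cells it stood at 7.24 ± 1.90 and 3.77 ± 0.829 CPM (SD, n = 5 each; -0.94, SE 0.231, adjusted p 0.0121). St6galnac3, of the same subfamily, fell in CD8 cells from 1.24 ± 0.440 to 0.303 ± 0.208 CPM (-2.01, SE 0.483, adjusted p 0.00453), -2.91 within number range A and -0.96 within number range B (adjusted p 0.0197 and 0.339).

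St6galnac5, which acts on gangliosides too, rose in CD4 cells. The week 1 libraries held 0.747, 0.0941, 0.750, 1.13 and 0.0833 CPM, and the week 3 libraries 15.1, 2.68, 15.9, 12.8 and 2.03 CPM. All week 3 libraries lay above all week 1 libraries. Replicates 2 and 5 were the lowest at each time, though the labels do not say whether equal replicate numbers share an animal or culture. The log2 fold change was 4.09 (SE 0.666, adjusted p 0.00108). In CD8 cells it had 1 count in week 1 and 4 counts in week 4 libraries, against 65 and 1099 in CD4 week 1 and week 3. It was lower in CD8 cells at week 1 (adjusted p 0.00347, but 0.0667 with limma-voom and 0.0772 within number range B) and in long-term culture (-7.88, SE 0.911, adjusted p 3.39e-06; -8.83 and -7.15 within the number ranges). St6galnac4, which adds sialic acid to sialylated core 1 O-glycans, was 1.56-fold higher in CD8 week 4 than in CD4 week 3 (61.8 ± 13.6 against 39.5 ± 4.55 CPM; 0.64, SE 0.190, adjusted p 0.0140; 0.46 and 0.88 within the number ranges). At week 1, St6galnac3 (2.40, adjusted p 0.00107; 2.63 and 1.95 within the number ranges) and St6galnac6 (0.64, adjusted p 0.0318) were higher in CD8 cells. The call of the latter was lost in both number ranges (0.74 and 0.48, adjusted p 0.0697 and 0.176) and on leaving out CD8 week 1 replicates 1 or 2 or CD4 week 1 replicates 3 or 4, in 8 of 21 alternatives in all.

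**Figure D4:**
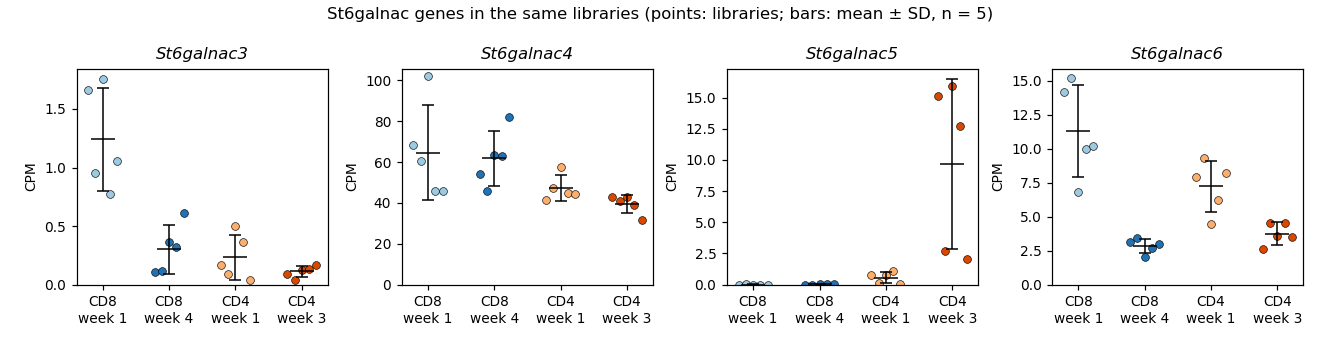
Level in CPM (vertical axis, linear from 0, scaled per gene) of the 4 St6galnac genes with a call; points are libraries in replicate order, and bars are means ± SD (n = 5). St6galnac5 reaches 15.9 CPM in CD4 week 3 and at most 0.0871 CPM in a CD8 library, and St6galnac6 is lower at the later time in both cell types.

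Of 5 tested genes that supply sialic acid or its donor, 1 rose and 1 fell in each cell type: Gne and Nans. Of all genes, 33.5% were called in CD8 cells and 16.5% in CD4 cells. Gne, which encodes the first enzyme of sialic acid synthesis, rose from 53.1 to 73.5 CPM in CD4 cells (0.47, SE 0.113, adjusted p 0.0114) and from 53.5 to 66.5 CPM in CD8 cells (0.31, SE 0.113, adjusted p 0.0402, a call lost in 14 of 22 alternatives). Nans, which encodes sialic acid synthase, fell by 0.42 in CD4 cells (adjusted p 0.0410, lost in 9 of 19 alternatives) and by 0.50 in CD8 cells (adjusted p 0.00950, lost within both number ranges). At week 1, Cmah, which makes the glycolyl form of sialic acid, and Slc35a1, the Golgi transporter of CMP-sialic acid, were lower in CD8 than in CD4 cells (-0.76 and -0.32, adjusted p 0.0316 and 0.0146). Within number ranges A and B, Cmah stood at -0.85 and -0.64 and Slc35a1 at -0.26 and -0.43, with a call lost in range A for each (adjusted p 0.0542 and 0.139). The Cmah call did not hold either without CD8 week 1 replicates 1, 2 or 5 or CD4 week 1 replicates 1 or 2 (adjusted p 0.0503 to 0.0839). None of the 5 passed between the long-term groups, beside 32.7% of all genes called, and their median there was -0.10.

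The list of sialidases and of enzymes that remove or add O-acetyl groups of sialic acid had 4 tested genes. All 4 were called in CD8 cells, beside 33.5% of all genes, although 2 of the calls (Siae and Casd1) were lost in most alternatives. Neu1, the lysosomal sialidase, rose from 29.4 to 47.6 CPM (0.70, SE 0.151, adjusted p 0.00238; 0.53 and 0.95 within number ranges A and B, adjusted p 0.122 and 0.0307). Neu3, a plasma membrane sialidase that acts on gangliosides, fell from 20.8 to 11.8 CPM (-0.82, SE 0.237, adjusted p 0.0132; -1.04 and -0.53 within the number ranges, adjusted p 0.0658 and 0.379). Without CD8 week 4 replicates 1 and 2 the Neu3 adjusted p was 0.0557. Siae and Casd1, which remove and add O-acetyl groups, rose by 0.27 and 0.26 (adjusted p 0.0364 and 0.0496), calls lost in 15 and 16 of 22 alternatives. In CD4 cells Neu3 fell from 11.7 to 5.70 CPM (-1.03, SE 0.241, adjusted p 0.00953; 0.0540 with only the CD4 groups in the fit). At both stages Neu1 was lower and Neu3 higher in CD8 than in CD4 cells (-0.99 and 0.83 at week 1, -0.67 and 1.05 in long-term culture; adjusted p 7.35e-05, 0.00978, 0.00219 and 0.00275). Within number range B, Neu3 at week 1 (0.77, adjusted p 0.102) and Neu1 in long-term culture (-0.55, 0.144) missed the threshold. Casd1 was lower in CD8 cells at week 1 (-0.37, adjusted p 0.00612, lost within range B) and Siae higher in CD8 week 4 than in CD4 week 3 (0.34, adjusted p 0.0110, lost in 2 of 22).

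Among 18 tested enzymes that build or compete for acceptor glycans, 13 were higher and 2 lower in CD8 than in CD4 cells at week 1, and 13 higher and 1 lower in long-term culture. Of all genes, 19.1% were higher and 19% lower at week 1, and 17.7% higher and 15% lower in long-term culture. The medians were 0.72 and 0.93, against -0.01 and 0.01 for all genes. Gcnt1, which starts core 2 O-glycans and uses the same core 1 acceptor as St3gal1, stood at 8.91 against 0.251 CPM at week 1 (5.14, SE 0.477, adjusted p 3.18e-07) and at 10.1 against 0.378 CPM in long-term culture (4.72, SE 0.456, adjusted p 3.90e-07). Mgat5, which branches N-glycans, and Galnt3, which starts O-glycans, were 2.50- and 7.07-fold higher in CD8 cells at week 1 (adjusted p 3.16e-05 and 0.000151). Fut7, a fucosyltransferase of selectin ligands, and Ugcg, which makes glucosylceramide, were 2.19- and 1.89-fold higher in the CD8 long-term group (adjusted p 0.000107 and 0.000155). B4galnt1, which extends gangliosides to GM2 and GD2, was higher at both stages (0.44 and 0.52, adjusted p 0.000654 and 0.000162). These calls held in each alternative tried, the number ranges included.

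Between times, 2 of the 18 acceptor enzymes rose and 2 fell in CD8 cells, beside 33.5% of all genes called, and 1 rose and 3 fell in CD4 cells, beside 16.5%. Fut8, which adds the core fucose of N-glycans, rose from 56.9 to 144 CPM in CD8 (1.33, SE 0.281, adjusted p 0.00196) and from 25.4 to 62.3 CPM in CD4 cells (1.30, SE 0.282, adjusted p 0.00665). Within number ranges A and B its CD8 change was 1.52 and 1.09 (adjusted p 0.0333 and 0.0957). Fut4, a fucosyltransferase of Lewis x structures, fell in both, from 9.05 to 2.94 CPM in CD8 and from 2.37 to 0.460 CPM in CD4 cells (-1.62 and -2.34, adjusted p 0.0231 and 0.0135). In CD8 cells the Fut4 values within the number ranges were -1.09 and -2.47 (adjusted p 0.348 and 0.0467), and the call did not hold without CD8 week 4 replicate 4 (0.0581) or 5 (0.0526) or CD8 week 1 replicate 5 (0.0527). Galnt1 fell by 0.29 and Mgat4a rose by 0.56 in CD8 cells (adjusted p 0.0177 and 0.0467, lost in 2 and 13 of 22 alternatives). B4galt5 and Mgat1 fell by 0.67 and 0.36 in CD4 cells (adjusted p 0.0268 and 0.0391, lost in 7 and 8 of 19).

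Of 9 tested glycoproteins that carry sialic acid on T cells, 2 rose in CD8 cells, beside 17.1% of all genes called higher. Ptprc, which encodes CD45, rose 1.32-fold (0.40, SE 0.0748, adjusted p 0.000896; 0.43 and 0.36 within the number ranges). Selplg, which encodes the selectin ligand PSGL-1, rose 1.17-fold (0.22, adjusted p 0.0211, lost in 6 of 22 alternatives, among them leaving out replicate 1 of CD8 week 1 or replicate 5 of CD8 week 4). Spn, which encodes CD43, fell 1.24-fold in CD4 cells (-0.31, SE 0.0711, adjusted p 0.00867) and was lower in CD8 than in CD4 cells at week 1 (-0.63, adjusted p 3.08e-06; -0.70 and -0.53 within the number ranges) and in long-term culture (-0.23, adjusted p 0.0183, lost in 6 of 22, among them those without CD8 week 4 replicate 1 or CD4 week 3 replicate 5). Ptprc was higher in the CD8 long-term group (0.33, adjusted p 0.00245). Cd8a and Cd8b1 are the markers of the sort between cell types; in CD4 cells Cd8a went from 0.726 to 4.77 CPM (2.71, adjusted p 0.0382), against 1.13 (0.281) without CD4 week 3 replicate 1, and the call was also lost without CD4 week 1 replicates 3, 4 or 5. Ccr7, a carrier of polysialic acid, was lower in CD8 cells at week 1 (-0.87, adjusted p 0.0182; -1.35 and -0.36 within number ranges A and B, 0.351 in the latter). The 8 Siglecs listed, receptors for sialic acid that are mostly found on other leukocytes, did not pass the filter on low counts.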

How the data were processed

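Polyadenylated RNA of the 20 libraries was sequenced on a NextSeq from stranded libraries (kit NEBNext Ultra II Directional), per the labels' protocols. The authors deposited raw counts of reads for each gene, with no normalization. The authors aligned reads with STAR to mm10, per the submitters' processing notes (version not given in the sources used here), and counted them with featureCounts 1.6.3, reversely stranded, on GENCODE M12, per the file headers. Reads with several alignments or genes were not counted, since the command there sets no option for them. The deposited table also gives each gene's merged exon length, per the file headers.

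The test was the quasi-likelihood F test of edgeR 4.0.16 (R 4.3.3), after filterByExpr and TMM, with all libraries in 1 model and a mean per group. In each of 5 comparisons p was adjusted over 13290 genes (Benjamini-Hochberg) and called under 0.05. SE was taken as log2 fold change over the root of F. CPM use TMM-scaled library sizes, and those of cell type markers library totals. Library totals ran from 13.3 to 28.3 M, and the 40 pairs of replicates differed by more than sampling noise (chi-square per degree of freedom 6.31 to 154). Of the 49671 genes, 49326 had a symbol and 24868 a count. No value column was left out. Some cell type markers are not reported here. Replicates were numbered in accession order and pair no libraries.

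The members and lists were chosen with earlier results of these data known. Named genes are the 9 members, the called genes with the smallest adjusted p of the other lists (up to 4 per list and comparison), and the 3 genes nearest to St8sia6 and to St3gal2 (log2 CPM with a prior count of 2, mean of at least 5 CPM). St6galnac2 has 2 gene IDs, of which the longer was used. Alternatives were RLE, upper-quartile and library-total scaling, DESeq2 1.42.0, limma-voom (limma 3.58.1), no filter, at least 5 CPM in 5 libraries, only the groups compared, the number range as a term, each CD8 range alone, the fit without CD8 week 4 replicates 1 and 2, and each library left out in turn. For the genes of the other lists these alternatives were added after the data were seen. The fits were tested on simulated data. Python 3.11.15 with pandas 2.3.3, numpy 2.4.6, scipy 1.17.1 and matplotlib 3.10.9 made the tables and plots.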

Additional observations from a re-analysis of the deposited data

Results flagged for a closer look

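St3gal4 in CD4 week 3 replicate 2, at 58.3 CPM, lay far from the other 4 libraries of its group (38.0 to 42.4 CPM), with a gap of 0.783 of the group's range, above the critical value of Dixon's test. Of 34 groups of a member with counts, this was the only one past that value, and chance flags about 1 in 20. The same library held the lowest St8sia6 value of its group. The changes of St3gal4 and St6gal1 differed between CD8 and CD4 cells by the interaction term (0.66 and -2.23 on the log2 scale, adjusted p 0.0470 and 0.0403, edgeR's quasi-likelihood test). Both calls were lost in most alternatives tried, 25 and 18 of 31.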

How the results depend on the processing

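Over the 7 tested members, 714 of 805 alternative values kept direction and side of the threshold, 67 lost a call, 10 gained one and 14 reversed; of 1133 values of named genes of the other lists, 994 kept both, 139 lost the call and none reversed. The genes called for CD8 week 4 against week 1 (4454) were 1067 within number range A and 2642 within B. For CD4 (2189), they were 1150 with only the groups compared and 1090 to 3650 with 1 library left out, the lowest without CD4 week 3 replicate 4 and the highest without CD4 week 3 replicate 2; they were 1112 without CD4 week 3 replicate 3, 1302 without CD4 week 3 replicate 5 and 1236 without CD4 week 1 replicate 3. For the difference of the changes (87), they were 334 with DESeq2, 55 with no filter, 25 and 45 within number ranges A and B, 168 without CD8 week 4 replicates 1 and 2, and 28 to 317 with 1 library left out, the lowest without CD8 week 1 replicate 4 and the highest without CD8 week 1 replicate 3. For CD8 against CD4 in long-term culture (4342), they were 1804 within range B and 2585 without CD8 week 4 replicates 1 and 2. The count of the 7 tested members called for CD8 (3) was 1 within either range and without CD8 week 4 replicates 1 and 2, and 1 to 3 with 1 library left out. For CD4 (1) it was 1 to 3 with 1 library left out; at week 1 between cell types (5) it was 3 and 2 within ranges A and B. For the difference (2) it was 1 with RLE size factors, library totals, no filter or the number range as a term, 0 within either range and without CD8 week 4 replicates 1 and 2, and 0 to 2 with 1 library left out. Reversed values were all of members without a call or a test in that comparison. In CD8 they were -0.13 for St3gal1 in range A, -0.082 for St3gal4 in range B and 0.10 for St8sia1 without CD8 week 4 replicates 1 and 2. For the difference they were -0.029 and -0.092 for St8sia4 in range B and without those libraries, where St8sia1 was 0.042 and St3gal2 -0.33. In the long-term groups St3gal2 was -0.44 and -0.77 under the same settings. With 1 library left out, the ranges were -0.018 to 0.36 (St3gal1, CD8), -0.14 to 0.055 (St3gal3, CD4), -0.027 to 0.15 (St8sia1, CD4) and -0.045 to 0.21 (St8sia4, difference). The causes were not tested, beyond the smaller number of libraries within a range. No paired analysis was possible because the labels give no replicate numbers, animals or cultures. Depth limits St8sia6 in CD8 cells to under the floor of 3 counts over a group, which covers counting error only.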
